A study of Urosaurus graciosus
Urosaurus ornatus and Urosaurus graciosus and Urosaurus ornatus with 18 samples.

Results

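Livers of 3 male tree lizards of the species Urosaurus graciosus (Ug_36, animals J, R and S) were compared with livers of 3 male lizards of Urosaurus ornatus (Uo_36, animals E, F and H), all kept at 36 °C for 48 h before RNA was taken. These 6 libraries are part of 18 in the series, and were chosen by the species and temperature on their labels, with every gene of the count table considered. The other libraries came from hybrids of both species and from animals kept at 40 °C, and the study asked how hybrids differ in the expression of antioxidant genes. Of those, the 3 U. graciosus (Ug_40, P, Q and T) and 3 U. ornatus (Uo_40, L, N and O) kept at 40 °C are set beside the 36 °C values below, and the 3 hybrids kept at 36 °C (A, B and D) for a pair of genes. The labels give 1 letter per lizard and no age, origin or batch.

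The lizard liver makes plasma proteins, bile acids and uric acid, stores and releases fat and glucose, and disposes of foreign compounds and reactive oxygen species. Most of its RNA comes from hepatocytes, with smaller contributions from stellate, endothelial, biliary and immune cells. Closely related species can differ in the level of a transcript, and they can also differ in the sequence of the gene, which changes how well reads align to the genome of another genus, here Sceloporus undulatus. In a comparison of species these sources of a difference cannot be told apart from gene counts alone. Nor can fewer cells of a type be told apart from less RNA per cell in whole liver.

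The species separated as groups. In the 6 libraries, which held 20986235 to 27501957 counts each, 57.7% of the variance lay along the first principal component, which placed the 3 U. graciosus at scores of 71.5 to 79.4 and the 3 U. ornatus at -83.2 to -66.2. Correlations of log2 CPM (CPM, a count divided by its library's scaled total) were 0.952 to 0.970 among the U. graciosus and 0.943 to 0.952 among the U. ornatus, and 0.866 to 0.896 between species. The median gene had an SD of 0.33 on the log2 scale among U. graciosus and 0.35 among U. ornatus.

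Of 15856 genes tested by edgeR's quasi-likelihood test, 2353 passed an adjusted p of 0.05 and are spoken of as called, 14.8% of those tested. Counts of called genes in every list below are to be read against this share. The share also changed with the level of expression, as given below, and lists of abundant genes are to be read with that in mind. Of the 2353 called genes, 1233 were higher in U. graciosus (7.78%) and 1120 were lower (7.06%). The median called gene differed by 1.5 on the log2 scale among those higher and by 1.82 among those lower, whereas over all genes tested the median difference was -0.01 and the median absolute difference 0.53. Differences of at least 2-fold made up 927 of the higher and 897 of the lower calls. The 3 animals of each species did not overlap in CPM for 6259 genes, 39.5% of those tested, among them 1210 of the higher and 1088 of the lower calls.

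Calling depended on the number of animals. Without 1 animal at a time, the higher and lower calls came to 783 and 604 without J, 758 and 556 without R, 911 and 646 without S, 686 and 712 without E, 726 and 721 without F, and 886 and 863 without H. A core of 895 genes, 504 higher and 391 lower, passed with all 6 animals and with each of them left out in turn. These are called stable here, and for any other called gene that is named, the animals whose removal ended the call are given with the adjusted p reached without them. CPM of single animals stand in the order J, R, S for U. graciosus and E, F, H for U. ornatus.

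The share of genes called changed with the level of expression. It was 10% of the 2461 genes averaging under 1 CPM, 17.2% of 5099 from 1 to 10 CPM, 16.1% of 6914 from 10 to 100 CPM, 8.70% of 1287 from 100 to 1000 CPM, and 2 of the 95 genes above 1000 CPM. Both of these abundant genes lost their call when single animals were left out. C1R, a protease that starts the classical complement pathway, had 1395, 2032 and 2227 CPM in U. graciosus, against 676, 584 and 976 CPM in U. ornatus, and its call was lost without J (0.0603), R (0.115), S (0.124), E (0.135), F (0.151) or H (0.0568). CST3, the secreted protease inhibitor cystatin C, had 573, 997 and 733 CPM in U. graciosus, against 1879.9, 3455 and 2715 CPM in U. ornatus, and its call was lost without J (0.0683), S (0.0532) or F (0.0569). CST3 was named after its values were seen. Genes with a symbol were called in 15.3% of cases and genes with placeholder names in 13.7%.

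**Figure D1:**
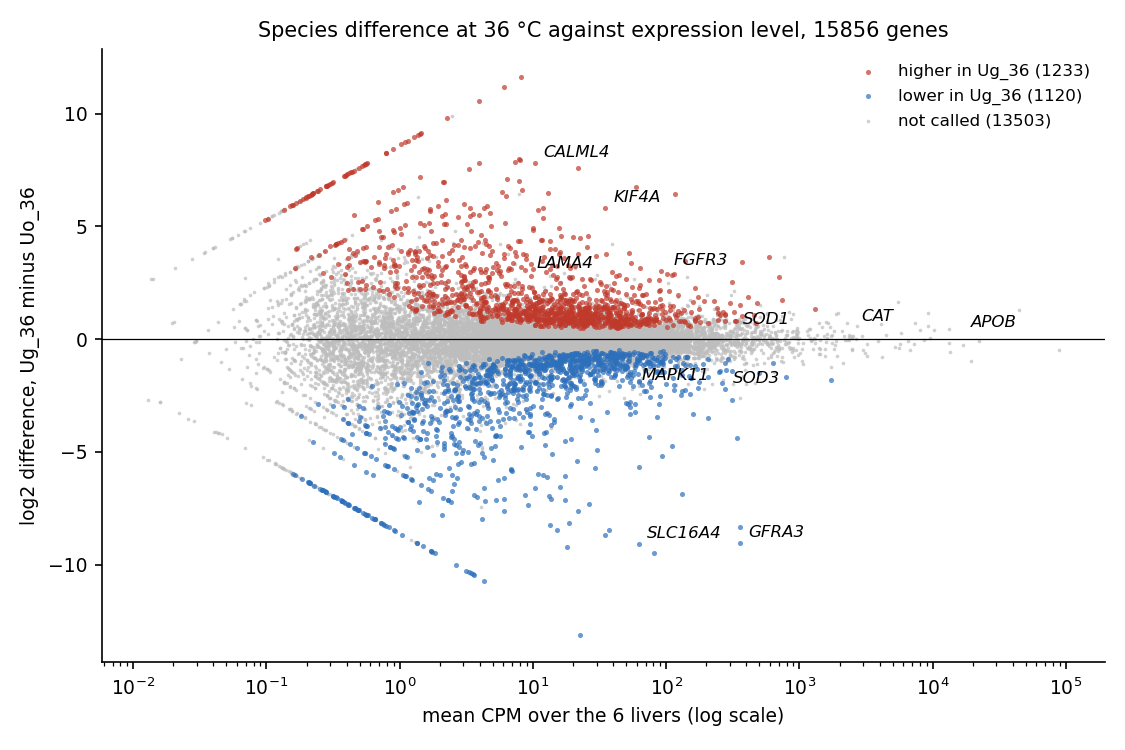
Each point is 1 of 15856 genes, with the mean CPM over the 6 livers on a log axis and the log2 difference of Ug_36 minus Uo_36 on the vertical axis. Red points mark the 1233 genes called higher in U. graciosus, blue points the 1120 called lower, and grey points the others; the diagonal lines at low CPM are genes with counts near 0 in 1 species.

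A set of genes was counted in only 1 of the species at 36 °C. There were 90 called genes with at most 3 counts over the 3 U. ornatus libraries, 46 of them with symbols and 56 at 0 counts, and 109 called genes with at most 3 counts over the 3 U. graciosus libraries, 62 with symbols and 71 at 0. In the other animals kept at 40 °C, 38 of the 90 again had at most 3 counts in U. ornatus, and 76 of the 109 again had at most 3 in U. graciosus. Fitted fold changes of such genes have no fixed size. With these genes set to a bound from 3 counts, 135 higher and 209 lower calls differed by at least 16-fold, and 26 and 62 by at least 64-fold. This bound, also used below for folds given as at least, takes each count as a separate fragment. It pools the counts of the 3 animals of a species, so it leaves out the spread between animals and does not bound the fold of a single animal. Most low counts were even, and if fragments were counted more than once, these folds and numbers of genes are too large.

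Those counted in U. graciosus included EPSTI1, an interferon-induced gene of epithelium and stroma, which had 0.864, 15.2 and 20.2 CPM in U. graciosus, against 0 CPM in all 3 U. ornatus. In pooled counts EPSTI1 was at least 276-fold higher in U. graciosus, with J far below R and S. SH2D4B, an SH2 domain adaptor, had 4.69, 5.67 and 3.34 CPM in U. graciosus, against 0 CPM in all 3 U. ornatus, at least 105-fold higher, and SYT11, a synaptotagmin of vesicle traffic, had 3.70, 2.54 and 1.94 CPM in U. graciosus, against 0 CPM in all 3 U. ornatus, at least 62.5-fold higher. At 40 °C the U. ornatus libraries together held 6, 6 and 10 counts of these genes, low but above the limit of 3 counts used for this set. BEND2 had 5.52, 6.43 and 7.77 CPM in U. graciosus, against 0.0947, 0 and 0 CPM in U. ornatus, a ratio of 225 of U. graciosus to U. ornatus (95% counting interval 62.0 to 1864). SLC24A2, a sodium, calcium and potassium exchanger, had 14.3, 5.79 and 3.29 CPM in U. graciosus, against 0.0947, 0 and 0 CPM in U. ornatus, a ratio of 268 of U. graciosus to U. ornatus (95% counting interval 73.9 to 2220.2). All 5 calls passed with each animal left out, but that of EPSTI1 was lost by limma voom with quality weights (adjusted p = 0.0638).

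Those counted in U. ornatus included KCNA7, a voltage-gated potassium channel, which had 0 CPM in all 3 U. graciosus, against 9.75, 3.96 and 6.90 CPM in U. ornatus, at least 167-fold lower in U. graciosus. AVPR1B, a vasopressin receptor, had 0 CPM in all 3 U. graciosus, against 1.61, 16.6 and 2.98 CPM in U. ornatus, at least 168-fold lower in pooled counts, with F far above E and H. SP7, a transcription factor known from bone, had 0 CPM in all 3 U. graciosus, against 6.25, 3.78 and 1.09 CPM in U. ornatus, at least 86.0-fold lower. TSPAN17, a tetraspanin, had 0 CPM in all 3 U. graciosus, against 3.93, 2.76 and 3.53 CPM in U. ornatus, at least 83.2-fold lower. SP7 and TSPAN17 also had 0 counts over the U. graciosus at 40 °C, where the U. ornatus held 168 and 136. TRPM6, a magnesium channel, had 0, 0.0794 and 0 CPM in U. graciosus, against 3.84, 1.47 and 8.45 CPM in U. ornatus, a ratio of 176 of U. ornatus to U. graciosus (95% counting interval 48.5 to 1463). CLIC5, a chloride channel protein of the cell cortex, had 0 CPM in all 3 U. graciosus, against 1.70, 13.9 and 10.1 CPM in U. ornatus, at least 213-fold lower, while at 40 °C it had 1 count in the U. graciosus and 47 in the U. ornatus and was not called. These 6 calls were stable.

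Among the genes with the smallest p, those higher in U. graciosus were led by KIF4A, a kinesin that binds chromosomes in dividing cells. It had 39.2, 79.0 and 87.1 CPM in U. graciosus, against 1.04, 1.34 and 1.24 CPM in U. ornatus, a log2 difference of 5.82 ± 0.40 (SE, 3 animals each; edgeR adjusted p = 2.24e-06). Every U. graciosus liver was above every U. ornatus liver by a wide margin, and the 3 U. ornatus values were close to each other. LAMA4, a laminin chain of vessel basement membranes, had 71.2, 60.7 and 88.2 CPM in U. graciosus, against 11.7, 10.6 and 9.53 CPM in U. ornatus (log2 2.79 ± 0.25, edgeR adjusted p = 1.87e-05). COL5A3, a chain of fibrillar collagen V, had 54.6, 20.7 and 16.5 CPM in U. graciosus, against 0.947, 0.921 and 1.09 CPM in U. ornatus (log2 4.95 ± 0.54), and ADAMTS12, a secreted metalloprotease, had 25.7, 16.1 and 16.5 CPM in U. graciosus, against 0.426, 0.645 and 0.814 CPM in U. ornatus (log2 4.93 ± 0.45). In each of these 3 genes the U. graciosus J or S was the highest animal and no U. ornatus came near.

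Other higher genes with a small p varied in role. CALML4, a calmodulin-like protein, had 31.0, 17.9 and 13.3 CPM in U. graciosus, against 0.0947, 0.0921 and 0.0775 CPM in U. ornatus (log2 7.80 ± 0.65). NAB2, a corepressor of the EGR transcription factors, had 12.1, 10.8 and 10.8 CPM in U. graciosus, against 2.41, 1.89 and 2.25 CPM in U. ornatus (log2 2.36 ± 0.25), and EFNB3, an ephrin ligand, had 8.77, 7.54 and 7.31 CPM in U. graciosus, against 0.189, 0.276 and 0.465 CPM in U. ornatus (log2 4.62 ± 0.49). PUS3, which makes pseudouridine in transfer RNA, had 17.5, 25.2 and 22.2 CPM in U. graciosus, against 7.05, 7.10 and 4.69 CPM in U. ornatus (log2 1.79 ± 0.20). These genes, and the lower ones below, were picked by a small p, which favours a small spread within species against the gap. CC2D1A, a scaffold protein of endosomes and of transcription, had 39.3, 34.3 and 32.9 CPM in U. graciosus, against 13.6, 14.9 and 12.6 CPM in U. ornatus (log2 1.38 ± 0.15, edgeR adjusted p = 9.76e-05). BTBD2, a BTB domain protein, had 65.2, 74.9 and 51.1 CPM in U. graciosus, against 12.6, 14.4 and 13.5 CPM in U. ornatus (log2 2.24 ± 0.25).

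Several of the genes lower in U. graciosus with the smallest p were near 0 in that species. SLC16A4, a member of the monocarboxylate transporter family, had 0.453, 0 and 0.211 CPM in U. graciosus, against 106, 132 and 133 CPM in U. ornatus (log2 -9.10 ± 0.91, edgeR adjusted p = 4.89e-05). DNAH5, a dynein of motile cilia, had 0.0823, 0.159 and 0 CPM in U. graciosus, against 19.0, 38.7 and 32.7 CPM in U. ornatus (log2 -8.44 ± 0.72). KIF1A, the kinesin that carries synaptic vesicle precursors, had 0.329, 0.238 and 0.0845 CPM in U. graciosus, against 51.5, 42.9 and 35.6 CPM in U. ornatus (log2 -7.60 ± 0.76), and GRIA1, an AMPA glutamate receptor subunit, had 0.412, 0.159 and 0.422 CPM in U. graciosus, against 36.0, 73.3 and 48.2 CPM in U. ornatus (log2 -7.30 ± 0.75). In these 4 genes the U. graciosus libraries were at or near 0 and all 3 U. ornatus were at 19.0 CPM or above. Their place in whole liver RNA, by cell type, was not tested.

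The other lower genes with the smallest p varied in role. CENPX, a histone-fold protein of the centromere and of the Fanconi anaemia complex, had 0.535, 0.159 and 0.380 CPM in U. graciosus, against 34.1, 21.4 and 20.4 CPM in U. ornatus (log2 -6.13 ± 0.50). RAD51B, a protein of homologous recombination, had 1.07, 1.90 and 1.10 CPM in U. graciosus, against 24.6, 20.7 and 25.8 CPM in U. ornatus (log2 -4.12 ± 0.41), and ACTR8, a subunit of the INO80 chromatin remodeller, had 22.9, 25.4 and 30.4 CPM in U. graciosus, against 119.6, 93.5 and 104 CPM in U. ornatus (log2 -2.01 ± 0.21). SFMBT2, a polycomb group protein, had 0.370, 0.476 and 0.169 CPM in U. graciosus, against 13.2, 24.1 and 27.3 CPM in U. ornatus (log2 -5.96 ± 0.56). MAPK11, the p38 beta kinase of stress signalling, had 22.6, 20.9 and 21.5 CPM in U. graciosus, against 91.9, 79.7 and 102 CPM in U. ornatus (log2 -2.08 ± 0.22, edgeR adjusted p = 5.78e-05), values in which the animals of a species differed little. RERG, a small GTPase, had 0.165, 0.159 and 0.0845 CPM in U. graciosus, against 19.3, 20.3 and 12.1 CPM in U. ornatus (log2 -6.93 ± 0.72), and RALGPS2, an exchange factor for Ral GTPases, had 7.94, 6.82 and 7.94 CPM in U. graciosus, against 27.8, 34.4 and 21.0 CPM in U. ornatus (log2 -1.87 ± 0.22). TMC4, a transmembrane channel-like protein, had 2.26, 1.94 and 1.56 CPM in U. graciosus, against 79.4, 52.9 and 44.8 CPM in U. ornatus (log2 -4.94 ± 0.58).

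A few lower genes combined a wide gap with a wide spread among the U. ornatus. GFRA3, a receptor of the GDNF family, had 1.65, 1.27 and 1.10 CPM in U. graciosus, against 349, 497 and 1286 CPM in U. ornatus (log2 -9.05 ± 1.19, edgeR adjusted p = 0.000255). ATP6V1B1, a proton pump subunit known from acid-secreting cells, had 0.247, 0.198 and 0.169 CPM in U. graciosus, against 18.2, 18.4 and 186 CPM in U. ornatus (log2 -8.46 ± 1.23), with H far above E and F. TCFL5, a basic helix-loop-helix factor known from testis, had 0, 0.159 and 0 CPM in U. graciosus, against 10.2, 57.2 and 39.8 CPM in U. ornatus (log2 -9.23 ± 1.24), and ASIC5, an acid-sensing ion channel family member, had 0.288, 0 and 0.0845 CPM in U. graciosus, against 5.30, 48.5 and 57.0 CPM in U. ornatus (log2 -8.17 ± 1.46). U. ornatus H was the highest animal for GFRA3, ATP6V1B1 and ASIC5. All 4 calls passed with each animal left out, but that of ASIC5 was lost by limma voom with quality weights (adjusted p = 0.0522).

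**Figure D2:**
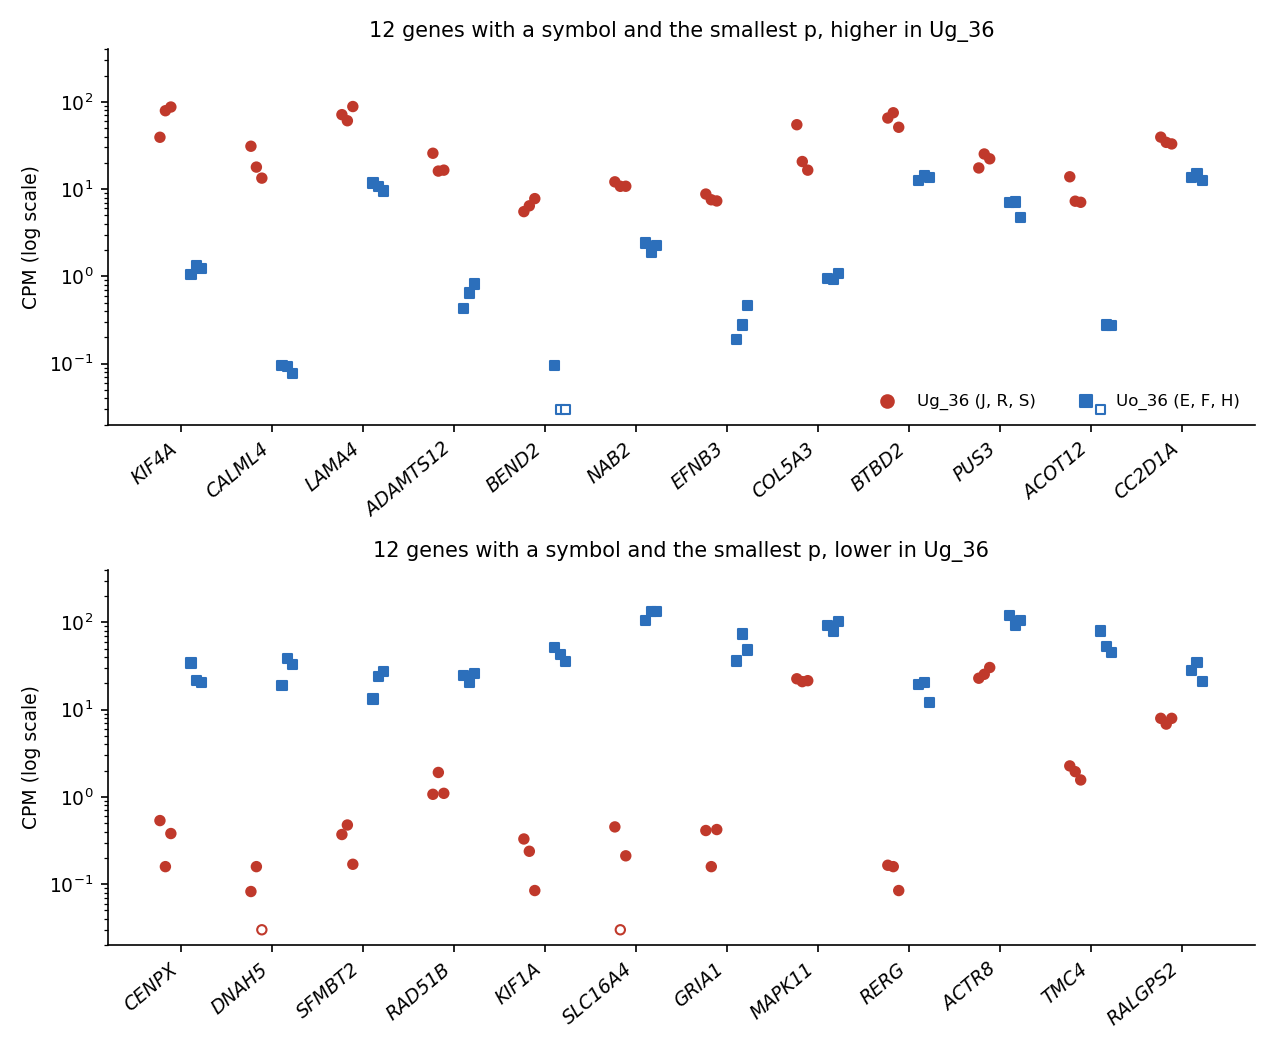
CPM of each animal on a log axis for the 12 genes with a symbol and the smallest p that were higher (top) or lower (bottom) in U. graciosus, with Ug_36 animals (red circles, J, R, S from left) left of Uo_36 animals (blue squares, E, F, H from left). Open symbols at 0.03 stand for a CPM of 0. KIF4A showed 39.2 to 87.1 CPM in Ug_36 against 1.04 to 1.34 in Uo_36. The animals of the species did not overlap for any of the 24 genes, nor for 39.5% of all genes tested. Picking genes by a small p favours groups without overlap.

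The liver label was met by the products of hepatocytes. Among 13 hepatocyte markers tested of 20 listed, 1 was called, 7.69% against 14.8% of all genes. Abundant genes of any kind were called less often, 8.70% from 100 to 1000 CPM and 2 of 95 above 1000 CPM. The summed level of the hepatocyte markers was 83665 to 106320 CPM in U. graciosus and 81259 to 94493 CPM in U. ornatus. APOB, the structural protein of liver lipoproteins, had 24679.9, 20085 and 20169 CPM in U. graciosus, against 17829.9, 22712 and 28528 CPM in U. ornatus (log2 -0.09 ± 0.40), and FGB, the fibrinogen beta chain, had 9912, 11133 and 16216 CPM in U. graciosus, against 17534, 13261 and 11024 CPM in U. ornatus (log2 -0.17 ± 0.50); both were far from the threshold, with edgeR adjusted p = 0.906 and 0.857. ALB, the albumin gene, was not analysed here. None of the 12 genes with a symbol and the highest mean CPM was called. In transferrin, TF, the U. ornatus animals spread widely, with 76545, 78065 and 36312 CPM in U. graciosus, against 9236, 21682 and 46096 CPM in U. ornatus (log2 1.31 ± 0.72, edgeR adjusted p = 0.237). C9, the last component of the complement pore, had 7061, 17451 and 13595 CPM in U. graciosus, against 6240.4, 4978 and 5911 CPM in U. ornatus, without overlap but short of the threshold (log2 1.15 ± 0.57, edgeR adjusted p = 0.181). No member was called among 17 plasma proteins and carriers, 15 genes of the acute phase response or 5 genes of the oestrogen and yolk response.

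Antioxidant enzymes, the subject of the study, remove superoxide and peroxides and keep thiols reduced. Of 43 tested members of a list of 49, 1 was higher in U. graciosus and 4 were lower, 11.6% against the 14.8% of all genes, and their median difference was -0.17. Leaving out an animal left 1 higher and 3 to 5 lower. The counts depended on the fit. The 6 libraries alone gave 1 higher and 6 lower, with 2347 genes called in all. By limma voom with quality weights 2 were higher and 9 lower, with 3637 genes called in all, so a share below that of all genes did not hold in every fit. Of the genes for removing superoxide, 2 were among the lower calls. SOD3, the extracellular superoxide dismutase, had 55.2, 77.2 and 157 CPM in U. graciosus, against 369, 372 and 613 CPM in U. ornatus, a log2 difference of -2.22 ± 0.44 (edgeR adjusted p = 0.00423). CCS, the chaperone that loads copper into SOD1, had 10.9, 6.11 and 8.24 CPM in U. graciosus, against 24.2, 24.3 and 19.5 CPM in U. ornatus (log2 -1.43 ± 0.35), a call lost without R (0.0624). All 3 U. graciosus lay below all 3 U. ornatus for both genes, as in 1088 of the 1120 lower calls. Of the 43 list members, 9 lay below and 2 above without overlap, while 39.5% of all genes tested had no overlap either way.

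The other antioxidant calls were in thiol and quinone enzymes. PRDX5, a peroxiredoxin of mitochondria and peroxisomes, had 84.5, 95.3 and 91.7 CPM in U. graciosus, against 37.5, 42.1 and 44.6 CPM in U. ornatus (log2 1.13 ± 0.23, edgeR adjusted p = 0.00456), the single member that was higher. NQO1, the quinone reductase, had 1.81, 2.22 and 1.65 CPM in U. graciosus, against 6.53, 13.4 and 11.3 CPM in U. ornatus (log2 -2.45 ± 0.45), and GLRX3, a glutaredoxin that handles iron-sulphur clusters, had 28.4, 28.6 and 32.4 CPM in U. graciosus, against 79.8, 57.5 and 56.3 CPM in U. ornatus (log2 -1.12 ± 0.23). These 3 calls and that of SOD3 were stable.

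The central enzymes of the system gave no call. SOD1, the cytosolic dismutase, had 336, 581 and 620.0 CPM in U. graciosus, against 497, 683 and 318 CPM in U. ornatus (log2 0.04 ± 0.32, edgeR adjusted p = 0.955), and SOD2, the mitochondrial dismutase, had 132, 104 and 146 CPM in U. graciosus, against 94.6, 149 and 163 CPM in U. ornatus (log2 -0.09 ± 0.24). CAT, catalase, had 2639, 1644 and 3631 CPM in U. graciosus, against 1193, 3797 and 2169 CPM in U. ornatus (log2 0.14 ± 0.50, edgeR adjusted p = 0.88). The animals overlapped in all 3 genes, and catalase varied by more within a species than between them. GPX1 and GPX4, the glutathione peroxidases for soluble and lipid peroxides, differed by 0.03 ± 0.40 and 0.25 ± 0.33, PRDX3, the mitochondrial peroxiredoxin, by -0.07 ± 0.38, HMOX1, which breaks down haem, by 0.16 ± 0.48, and NFE2L2, the factor that drives many of these genes, by -0.52 ± 0.35 on the log2 scale. The SE, 0.50 for CAT and 0.24 for SOD2, is a rough guide to what size of difference could be seen in each.

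Enzymes that conjugate or hydrolyse drugs and other foreign compounds were called in 4 of 12 tested members, 33.3% against the 14.8% of all genes, all 4 lower in U. graciosus. At 40 °C, in other animals, 2 members of the list were higher and 2 lower, with a median of 0.07. EPHX1, the microsomal epoxide hydrolase, had 12.5, 12.2 and 12.5 CPM in U. graciosus, against 57.0, 94.2 and 112 CPM in U. ornatus (log2 -2.82 ± 0.44, edgeR adjusted p = 0.000816). GSTO1, a glutathione transferase of the omega class, had 9.80, 12.6 and 11.3 CPM in U. graciosus, against 22.2, 45.8 and 34.0 CPM in U. ornatus (log2 -1.60 ± 0.36). TPMT, which methylates thiopurines, had 10.2, 9.64 and 16 CPM in U. graciosus, against 26.1, 42.6 and 20.1 CPM in U. ornatus (log2 -1.31 ± 0.32), a call lost without J (0.0598), R (0.0627) or F (0.0767). The median of the 12 members was -0.31, with 6 above 0 and 6 at or below it. Only 12 of 35 listed genes of this kind and 4 of 47 cytochrome P450 genes and partners carry these symbols in the table, and none of the 4 was called.

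Fatty acid oxidation and synthesis gave 2 calls. ACOT12, which hydrolyses acetyl-CoA in liver cytosol, had 13.8, 7.26 and 7.05 CPM in U. graciosus, against 0, 0.276 and 0.271 CPM in U. ornatus (log2 5.62 ± 0.62, edgeR adjusted p = 9.26e-05), and ACADL, the long-chain acyl-CoA dehydrogenase of fat oxidation, had 48.0, 47.3 and 61.2 CPM in U. graciosus, against 181, 120.3 and 124 CPM in U. ornatus (log2 -1.44 ± 0.21). These were the 2 calls among 32 genes of fatty acid oxidation and ketone synthesis, 6.25% against 14.8% of all genes. None of 21 genes of fatty acid and triglyceride synthesis was called, GPAM included, with 31.9, 29.4 and 32.4 CPM in U. graciosus, against 25.6, 36.3 and 33.9 CPM in U. ornatus (log2 -0.03 ± 0.16). The animals of both species overlapped for GPAM.

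Cholesterol genes gave 1 higher and 3 lower calls among 24, 16.7% against 14.8% of all genes, and the lower calls numbered 1 without R or F, 2 without J, S or E and 3 without H. NPC1L1, the transporter that takes up cholesterol in gut and, in humans, bile canaliculi, had 0.247, 0 and 0.253 CPM in U. graciosus, against 5.26, 7.19 and 4.53 CPM in U. ornatus (log2 -5.05 ± 1.06), and was near 0 in every U. graciosus. INSIG2, which holds back SREBP processing, had 77.0, 91.3 and 119 CPM in U. graciosus, against 218, 289 and 222 CPM in U. ornatus (log2 -1.34 ± 0.37), a call lost without J (0.0947), R (0.0801) or F (0.0798).

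Bile acid genes gave 2 higher calls among 13, 15.4% against 14.8% of all genes. ACOT8, a peroxisomal thioesterase acting on bile acid and fatty acyl-CoA, had 14.5, 17.8 and 12.6 CPM in U. graciosus, against 6.68, 6.59 and 5.04 CPM in U. ornatus (log2 1.30 ± 0.22, edgeR adjusted p = 0.00162). FGFR4, the hepatocyte receptor for the bile acid signal FGF19 in humans, had 55.0, 52.8 and 32.0 CPM in U. graciosus, against 8.24, 10.4 and 4.30 CPM in U. ornatus (log2 2.61 ± 0.81), and its call was lost without J (0.094), R (0.0915), S (0.0555), E (0.104), F (0.0779) or H (0.119). APOC3, which inhibits lipoprotein lipase, was the 1 call among 18 genes of lipoproteins and lipases, 5.56% against 14.8% of all genes. It had 386, 331 and 319.8 CPM in U. graciosus, against 86.4, 128 and 109.6 CPM in U. ornatus (log2 1.68 ± 0.44), lost without J (0.0557), E (0.0769) or H (0.0527). APOA1, the main protein of high-density lipoprotein, had 1507, 1385 and 1909 CPM in U. graciosus, against 2452, 1012 and 889 CPM in U. ornatus and was not called.

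Carbon and nitrogen metabolism differed in single genes. None of 31 genes of gluconeogenesis, glycolysis and glycogen was called. Of 42 genes of amino acid breakdown, 1 was higher and 2 were lower, 7.14% against 14.8% of all genes. OAT, ornithine aminotransferase, had 146, 162 and 163 CPM in U. graciosus, against 414, 460.2 and 328 CPM in U. ornatus (log2 -1.35 ± 0.29, edgeR adjusted p = 0.00683), a stable call. GCSH, the lipoyl carrier of the glycine cleavage system, had 521, 488 and 335 CPM in U. graciosus, against 236, 189 and 161 CPM in U. ornatus (log2 1.20 ± 0.35), lost without J (0.0975), R (0.0923), E (0.052), F (0.0896) or H (0.0982). Among 21 purine and urate genes, 1 was higher and 1 lower, 9.52% against 14.8% of all genes. AMPD1, an AMP deaminase known from muscle, had 12.5, 3.53 and 2.28 CPM in U. graciosus, against 0.805, 0.553 and 1.78 CPM in U. ornatus (log2 2.52 ± 0.71), lost without J (0.173), E (0.0932) or F (0.0982). SLC2A9, a urate transporter, had 0.741, 1.07 and 0.338 CPM in U. graciosus, against 6.58, 3.04 and 4.92 CPM in U. ornatus (log2 -2.75 ± 0.79), lost without J (0.0874), R (0.0577), S (0.103), E (0.0863) or H (0.0558).

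Most proteins of mitochondria come from nuclear genes, which are described here by the complex or step they serve. Differences between these groups in the share called were not tested. The 35 nuclear subunits of complex I gave 3 calls, 8.57% against 14.8% of all genes, all higher in U. graciosus, with a median of -0.06. The 19 tested subunits of complexes II to V, of 57 listed, gave none. NDUFB10, an accessory subunit, had 139, 111 and 104 CPM in U. graciosus, against 37.1, 50.4 and 46.7 CPM in U. ornatus (log2 1.40 ± 0.28, edgeR adjusted p = 0.00499), and every U. graciosus had more than 2-fold the CPM of any U. ornatus. NDUFA8 had 69.6, 59.1 and 58.5 CPM in U. graciosus, against 37.0, 35.4 and 40.1 CPM in U. ornatus (log2 0.74 ± 0.18), lost without J (0.0547) or F (0.0541). NDUFS4, a subunit of the NADH-oxidising arm, had 31.9, 41.3 and 31.6 CPM in U. graciosus, against 16.2, 23.5 and 24.7 CPM in U. ornatus (log2 0.70 ± 0.20), lost without R (0.13), E (0.126) or F (0.0545).

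Assembly factors of the respiratory complexes were called in 6 of 19 tested members, 31.6% against the 14.8% of all genes, 3 higher and 3 lower. SDHAF2, which inserts the flavin into succinate dehydrogenase, had 28.9, 32.5 and 29.9 CPM in U. graciosus, against 8.95, 5.53 and 12.6 CPM in U. ornatus (log2 1.75 ± 0.26, edgeR adjusted p = 0.000586). NDUFAF2, an assembly factor of complex I, had 5.93, 4.29 and 7.05 CPM in U. graciosus, against 2.04, 1.47 and 2.09 CPM in U. ornatus (log2 1.62 ± 0.29), and NUBPL, which delivers iron-sulphur clusters to complex I, had 10.9, 9.80 and 14.3 CPM in U. graciosus, against 4.83, 2.95 and 4.15 CPM in U. ornatus (log2 1.55 ± 0.35). The 3 higher calls were stable. The 3 lower ones were not, and their number was 0 without J, R, E or F, 1 without S and 2 without H. NDUFAF1 had 14.6, 11.8 and 22.7 CPM in U. graciosus, against 32.9, 38.5 and 26.4 CPM in U. ornatus (log2 -0.99 ± 0.31), lost without J (0.123), R (0.144), E (0.0904) or F (0.125). ACAD9, an acyl-CoA dehydrogenase that also helps assemble complex I, had 56.2, 52.6 and 71.4 CPM in U. graciosus, against 125, 141 and 94.9 CPM in U. ornatus (log2 -1.0 ± 0.32), lost without J (0.123), R (0.132), S (0.0625), E (0.103) or F (0.132).

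The mitochondrial ribosome and the genes that copy and express mitochondrial DNA were called at 16.5% of 79 and 20.4% of 49 tested members. The share over all genes was 14.8%, and the medians of the lists were 0.14 and 0.16. For the ribosome 8 were higher and 5 lower, and leaving out an animal left 2 to 6 higher, lowest without J or R, and 2 to 5 lower, lowest without E. MRPL45, which anchors the ribosome to the inner membrane, had 22.5, 20.6 and 25.4 CPM in U. graciosus, against 55.6, 60.5 and 57.2 CPM in U. ornatus (log2 -1.34 ± 0.19, edgeR adjusted p = 0.000441). MRPL30 had 24.4, 27.3 and 26.6 CPM in U. graciosus, against 16, 11.1 and 14.1 CPM in U. ornatus (log2 0.93 ± 0.21). Both were stable and opposite in sign.

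Of the genes for mitochondrial DNA and RNA, 7 were higher and 3 lower, and leaving out an animal left 3 to 5 higher, lowest without J, E or F, and 0 to 3 lower, lowest without J or R. ELAC2, which cuts the 3′ ends of transfer RNA precursors, had 32.1, 35.8 and 33.2 CPM in U. graciosus, against 18.7, 18.4 and 14.5 CPM in U. ornatus (log2 0.97 ± 0.15, edgeR adjusted p = 0.000655). MRM3, a methyltransferase of mitochondrial ribosomal RNA, had 11.5, 11.2 and 8.02 CPM in U. graciosus, against 5.30, 2.95 and 3.95 CPM in U. ornatus (log2 1.33 ± 0.30), and TOP3A, the topoisomerase that separates daughter DNA circles, had 25.1, 27.2 and 24.1 CPM in U. graciosus, against 10, 12.1 and 12.3 CPM in U. ornatus (log2 1.15 ± 0.26). These 3 were stable. POLG, the mitochondrial DNA polymerase, had 33.1, 33.9 and 31.5 CPM in U. graciosus, against 18.8, 28.6 and 33.1 CPM in U. ornatus (log2 0.29 ± 0.31) and was not called. Genes encoded by mitochondrial DNA itself and TFAM, the packaging factor, were not analysed here.

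Genes that sense and repair DNA damage were called in 11 of 68 tested members, 16.2% against 14.8% of all genes. Of these, 4 were higher and 7 lower, and the median of the list was -0.22. Mismatch and excision repair genes were among the higher. MSH3, which recognises DNA loops, had 25.1, 25.1 and 26.7 CPM in U. graciosus, against 8.52, 6.59 and 6.24 CPM in U. ornatus (log2 1.85 ± 0.33, edgeR adjusted p = 0.00216), and XPA, which verifies bulky lesions in nucleotide excision repair, had 12.1, 12 and 11.8 CPM in U. graciosus, against 7.72, 6.31 and 5.46 CPM in U. ornatus (log2 0.88 ± 0.20, edgeR adjusted p = 0.0102). Both were stable, and the 3 U. graciosus values of each gene were almost the same. RAD51C, a partner of RAD51B in recombination, had 9.80, 13.4 and 13.1 CPM in U. graciosus, against 3.17, 6.13 and 6.59 CPM in U. ornatus (log2 1.19 ± 0.29), lost without R (0.0501) or E (0.0583). CHEK1, the kinase that halts the cell cycle after replication stress, had 0.905, 1.03 and 0.718 CPM in U. graciosus, against 4.26, 4.33 and 4.03 CPM in U. ornatus (log2 -2.24 ± 0.51, edgeR adjusted p = 0.00966), a stable call. ATM, the kinase that answers double-strand breaks, had 50.9, 48.7 and 52.8 CPM in U. graciosus, against 97.2, 75.1 and 71.1 CPM in U. ornatus (log2 -0.68 ± 0.16), lost without E (0.0596). Over the leave-outs the higher calls numbered 2 to 4, lowest without R, and the lower calls 2 to 5, also lowest without R.

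Of 35 cell cycle genes 1 was called, 2.86% against 14.8% of all genes. CCNB2, a cyclin of mitosis, had 11.5, 8.81 and 8.11 CPM in U. graciosus, against 1.70, 3.59 and 3.64 CPM in U. ornatus (log2 1.66 ± 0.36, edgeR adjusted p = 0.00732), while the list's median was -0.38 and 11 of 35 members were above 0. KIF4A, a gene of mitosis outside this list, was higher as well, so these calls had a sign opposite to the list's median at 36 °C. At 40 °C, in other animals, the median of the list was 0.14.

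Protein quality control gave few calls at 36 °C. The shares were 2.63% of heat shock genes, 3.33% of endoplasmic reticulum stress genes and 4.76% of mitochondrial chaperones and proteases, against 14.8% of all genes. Of 38 cytosolic heat shock proteins and their regulators, 1 was called, HSF1, the transcription factor that drives the heat shock response, with 20.2, 17.4 and 17.9 CPM in U. graciosus, against 7.58, 7.88 and 9.49 CPM in U. ornatus (log2 1.15 ± 0.20, edgeR adjusted p = 0.00199). All 3 U. graciosus were at 17.4 CPM or above and no U. ornatus exceeded 9.49 CPM. Its target HSP90AA1 had 212, 235 and 279.8 CPM in U. graciosus, against 386, 247 and 207 CPM in U. ornatus (log2 -0.21 ± 0.91), and HSPA8, the constitutive HSP70, had 73.2, 52.6 and 60.1 CPM in U. graciosus, against 138, 41.4 and 44.2 CPM in U. ornatus (log2 -0.26 ± 1.04), neither of them called and both with wide errors. Without E the differences were 0.10 for HSP90AA1 and 0.54 for HSPA8. ATF4, a factor of the unfolded protein response, was the 1 call among 30 genes of endoplasmic reticulum stress, with 9.30, 12.1 and 11.2 CPM in U. graciosus, against 10.7, 39.2 and 44.0 CPM in U. ornatus, lost without J (0.105), R (0.0745), S (0.0801), F (0.1) or H (0.112). TRAP1, the mitochondrial HSP90, was the 1 call among 21 mitochondrial chaperones and proteases, with 105, 62.0 and 55.1 CPM in U. graciosus, against 30.2, 36.4 and 36.2 CPM in U. ornatus, lost without J (0.13), E (0.091), F (0.0623) or H (0.0564).

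Of 74 cytosolic ribosomal proteins 2 were called, both higher, 2.70% against 14.8% of all genes. RPS26 was a stable call, with 387, 339.7 and 340.2 CPM in U. graciosus, against 184, 209 and 209 CPM in U. ornatus (log2 0.82 ± 0.19), and RPS18 had 481, 426 and 363 CPM in U. graciosus, against 213, 213 and 309 CPM in U. ornatus (log2 0.79 ± 0.23), lost without J (0.109), R (0.0864), E (0.118) or F (0.116). Ribosomal protein genes have many processed copies, and how the authors' counting shared their reads is not given in the sources used here. Of 38 proteasome genes 2 were higher, 5.26% against 14.8% of all genes. Neither of these proteasome calls was stable, and 0 were called without R, E or F. Among 46 genes of autophagy and lysosome, 4 were higher and 2 lower, 13% against 14.8% of all genes, with a median of -0.33. The higher calls numbered 4 without J, 2 without S, E or H and 1 without R or F, and the lower calls 1 or 2. At 40 °C the list had 1 higher and 9 lower calls. TPP1, a tripeptidyl peptidase of the lysosome, had 22.9, 20.3 and 20.7 CPM in U. graciosus, against 8.0, 6.73 and 7.01 CPM in U. ornatus (log2 1.56 ± 0.18, edgeR adjusted p = 0.000122), and HEXA, the alpha subunit of beta-hexosaminidase, had 12.5, 13.8 and 14.7 CPM in U. graciosus, against 46.0, 40.4 and 48.6 CPM in U. ornatus (log2 -1.72 ± 0.21, edgeR adjusted p = 0.000167). LAMP2, a lysosome membrane protein, had 141, 154 and 176 CPM in U. graciosus, against 86.4, 73.4 and 74.7 CPM in U. ornatus, lost without R (0.051), S (0.0622), F (0.067) or H (0.0573). MAP1LC3A, an LC3 protein of autophagosomes, had 56.7, 69.8 and 90.9 CPM in U. graciosus, against 160.1, 141 and 123 CPM in U. ornatus, lost without J (0.112), R (0.0843), E (0.0928) or F (0.0652).

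Clotting genes were called in 3 of 23, 13% against 14.8% of all genes, all lower in U. graciosus, with a median of -0.22. At 40 °C 1 was higher and 1 lower, with a median of 0.29. F13A1, the fibrin-crosslinking factor, which macrophages and platelets make in mammals, had 6.05, 6.43 and 5.66 CPM in U. graciosus, against 46.6, 30.1 and 34.8 CPM in U. ornatus (log2 -2.62 ± 0.57, edgeR adjusted p = 0.00732). VKORC1, which recycles vitamin K, had 17.2, 24.2 and 16.3 CPM in U. graciosus, against 43.6, 47.1 and 95.1 CPM in U. ornatus (log2 -1.69 ± 0.31, edgeR adjusted p = 0.0029). Both were stable, and CPB2, an inhibitor of fibrinolysis, had 395, 460.3 and 378 CPM in U. graciosus, against 624, 779 and 1169 CPM in U. ornatus, lost without J (0.0928), R (0.0656), S (0.0923), F (0.056) or H (0.127). Of 23 complement genes, 2 were higher and 1 lower, 13% against 14.8% of all genes. C8G had 37.9, 37.6 and 27.2 CPM in U. graciosus, against 2.98, 7.65 and 13.6 CPM in U. ornatus (log2 2.08 ± 0.55), lost without J (0.0531), R (0.0546), E (0.071) or F (0.0653). CD59, which protects cells from the complement pore, had 0 CPM in all 3 U. graciosus, against 1.18, 10.5 and 4.07 CPM in U. ornatus, at least 127-fold lower in U. graciosus. CD59 had 18 counts over the U. graciosus at 40 °C against 123 over the U. ornatus, and was not called there.

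Interferon and antiviral genes were called in 5 of 26, 19.2% against 14.8% of all genes, 4 higher and 1 lower. The median of the list was -0.05, with 12 of 26 members above 0. STAT2, which carries the type I interferon signal to the nucleus, had 45.2, 98.1 and 81.7 CPM in U. graciosus, against 19.6, 26.2 and 33.8 CPM in U. ornatus (log2 1.5 ± 0.32, edgeR adjusted p = 0.00713), the single stable call. ADAR, which edits double-stranded RNA, had 40.7, 103 and 94.8 CPM in U. graciosus, against 31.2, 24.1 and 40.3 CPM in U. ornatus (log2 1.32 ± 0.32), lost without R (0.056) or F (0.0569). DDX58, the RNA sensor RIG-I, had 43.8, 121 and 209.5 CPM in U. graciosus, against 33.9, 27.0 and 59.2 CPM in U. ornatus (log2 1.64 ± 0.49), lost without R (0.0746), S (0.175), E (0.115) or F (0.125). U. graciosus J was the lowest of its species for these 3 genes, and without J 6 members were higher and 0 lower, against 1 and 0 without R. IFNAR1, a chain of the interferon receptor, had 5.56, 6.71 and 8.11 CPM in U. graciosus, against 15.0, 19.5 and 17.5 CPM in U. ornatus (log2 -1.35 ± 0.34), lost without J (0.068), R (0.055) or F (0.0535).

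Of 15 tested genes of antigen presentation, 3 were lower in U. graciosus, 20% against 14.8% of all genes, none was higher, and 1 lay above 0, with a median of -0.58. The lower calls numbered 1 without R or E, 2 without J, S or F and 3 without H. At 40 °C, in other animals, 0 members were higher and 6 lower, with a median of -1.32, and all 3 calls recurred. CTSS, a protease that trims the invariant chain, had 65.7, 67.6 and 78.9 CPM in U. graciosus, against 323, 175 and 203 CPM in U. ornatus (log2 -1.72 ± 0.40, edgeR adjusted p = 0.0106), a stable call. PSMB9, a subunit of the immunoproteasome, had 9.55, 6.23 and 7.94 CPM in U. graciosus, against 51.7, 17.4 and 22.3 CPM in U. ornatus (log2 -1.94 ± 0.46), lost without R (0.0544) or E (0.0678). PSME1, a proteasome activator, had 31.6, 37.5 and 42.5 CPM in U. graciosus, against 117, 65.0 and 54.5 CPM in U. ornatus (log2 -1.08 ± 0.35), lost without J (0.15), R (0.112), S (0.0825), E (0.236) or F (0.0664). U. ornatus E was the highest animal for all 3 genes. Macrophages are known to express such genes. The summed level of 12 macrophage markers was 480, 491 and 458 CPM in U. graciosus, against 903, 577 and 569 CPM in U. ornatus, likewise highest in E, and its part in these values was not tested.

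Receptors for growth factors gave 4 higher calls and 1 lower among 32 tested members, 15.6% against 14.8% of all genes. FGFR3, an FGF receptor, had 281, 117 and 87.5 CPM in U. graciosus, against 15.0, 24.2 and 20.1 CPM in U. ornatus (log2 3.03 ± 0.50, edgeR adjusted p = 0.00126), a stable call in which J stood above the other U. graciosus. EGFR, the epidermal growth factor receptor, had 1712, 678 and 1014 CPM in U. graciosus, against 247, 332 and 431 CPM in U. ornatus (log2 1.75 ± 0.53), lost without J (0.15), S (0.064), E (0.129), F (0.101) or H (0.0584). AGTR1, an angiotensin II receptor, had 7.16, 7.46 and 8.15 CPM in U. graciosus, against 3.74, 3.46 and 3.29 CPM in U. ornatus (log2 1.12 ± 0.28), lost without F (0.052) or H (0.0509). Leaving out an animal left 1 to 3 higher, lowest without F or H. Of 41 nuclear receptors and liver transcription factors only ARNT was called, 2.44% against 14.8% of all genes. It had 85.9, 98.0 and 89.1 CPM in U. graciosus, against 63.9, 48.8 and 52.0 CPM in U. ornatus (log2 0.73 ± 0.23), lost without J (0.0791), R (0.12), S (0.0852), E (0.0581), F (0.139) or H (0.109).

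Transporters of the hepatocyte were called in 7 of 36, 19.4% against 14.8% of all genes, 2 higher and 5 lower, and leaving out an animal left 0 or 1 higher and 1 to 3 lower. SLC22A3, an organic cation transporter, had 0.247, 0.0794 and 0.676 CPM in U. graciosus, against 32.5, 32.9 and 28.9 CPM in U. ornatus (log2 -6.55 ± 1.30, edgeR adjusted p = 0.00441), the stable call. ATP7B, which exports copper into bile, had 73.0, 51.6 and 54.1 CPM in U. graciosus, against 113, 112 and 160.1 CPM in U. ornatus (log2 -1.11 ± 0.27), lost without R (0.0584) or H (0.0507). AQP3, a channel for water and glycerol, had 17.9, 22.2 and 12.8 CPM in U. graciosus, against 3.74, 7.37 and 5.27 CPM in U. ornatus (log2 1.69 ± 0.48), lost without J (0.0671), R (0.0973), E (0.11) or H (0.0755). In haem and iron handling 3 of 33 genes were higher and 1 lower, 12.1% against 14.8% of all genes, with none stable. Among the higher was ACO1, the cytosolic aconitase that becomes an iron sensor, with 586, 514 and 671 CPM in U. graciosus, against 356, 328 and 383 CPM in U. ornatus (log2 0.73 ± 0.22), lost without J (0.0774), R (0.0554), S (0.11), E (0.0905), F (0.111) or H (0.0611).

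**Figure D3:**
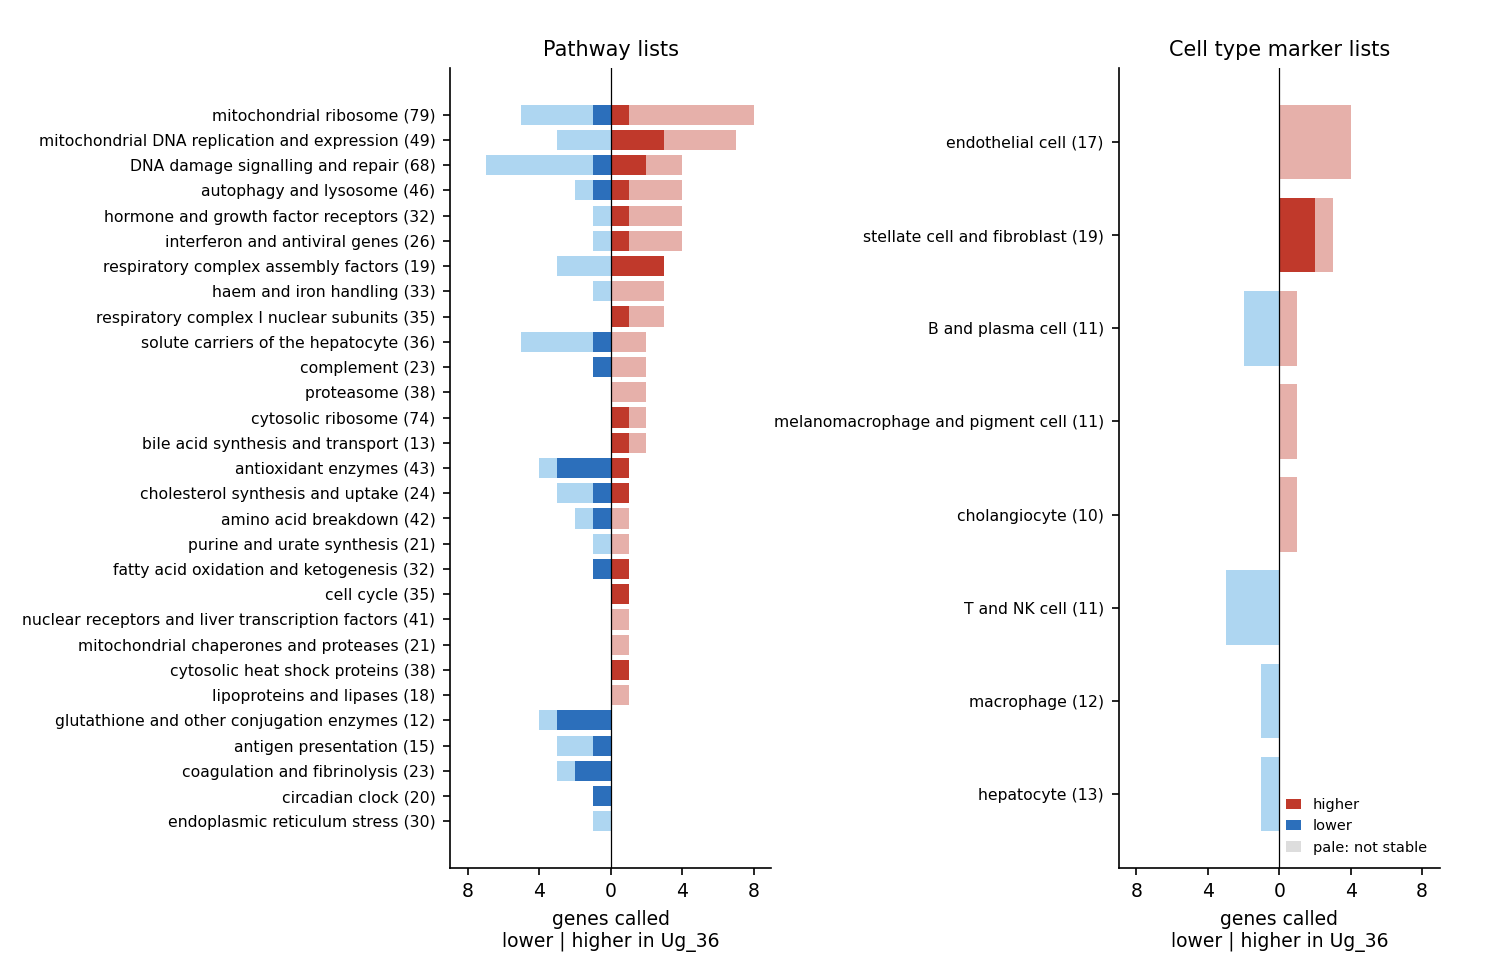
For each list with at least 1 call, the bar to the right of 0 counts genes higher and the bar to the left genes lower in U. graciosus at 36 °C, with the number of tested genes in parentheses. The dark part of a bar counts stable calls, those that passed with each animal left out in turn; the mitochondrial ribosome had 8 higher and 5 lower calls of which 1 each was stable, and the respiratory assembly factors had 3 stable higher calls.

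Markers of cells other than hepatocytes gave 1 to 4 calls in each of 7 lists. Of 19 stellate cell and fibroblast markers, 3 were higher in U. graciosus, 15.8% against 14.8% of all genes, none was lower, and 16 lay above 0, with a median of 0.98. The PDGF receptors of stellate cells were both stable calls. PDGFRB had 21.9, 17.3 and 21.5 CPM in U. graciosus, against 7.58, 7.65 and 7.21 CPM in U. ornatus (log2 1.44 ± 0.29, edgeR adjusted p = 0.00502) and PDGFRA had 36.6, 37.4 and 38.1 CPM in U. graciosus, against 7.58, 10.8 and 10.6 CPM in U. ornatus (log2 1.95 ± 0.42, edgeR adjusted p = 0.00658). LRAT, which makes the retinyl esters that stellate cells store, had 17.8, 20.2 and 9.84 CPM in U. graciosus, against 7.10, 6.40 and 5.81 CPM in U. ornatus (log2 1.31 ± 0.38), lost without J (0.0864), R (0.115), E (0.0696), F (0.0828) or H (0.0852). COL3A1, a fibrillar collagen, had 295, 83.0 and 104 CPM in U. graciosus, against 21.3, 99.5 and 74.2 CPM in U. ornatus and was not called. The summed level of the list was 784 to 1162 CPM in U. graciosus and 452 to 782 CPM in U. ornatus, so the sums did not overlap but came close. In other animals at 40 °C, 7 markers were higher and 0 lower, with a median of 1.29, and 1 of the 3 calls recurred.

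Of 17 endothelial markers, 4 were higher, 23.5% against 14.8% of all genes, 13 lay above 0 and the median was 0.57. STAB1, the scavenger receptor of sinusoids, had 356, 306 and 379.7 CPM in U. graciosus, against 89.2, 105 and 207 CPM in U. ornatus (log2 1.38 ± 0.41), lost without J (0.08), R (0.0626), S (0.0846), E (0.132) or F (0.12). STAB2 had 36.1, 22.7 and 44.8 CPM in U. graciosus, against 9.33, 15.2 and 20 CPM in U. ornatus (log2 1.22 ± 0.39), lost without J (0.11), S (0.155), E (0.173) or F (0.113), and ENG, endoglin, had 59.2, 29.5 and 28.7 CPM in U. graciosus, against 9.61, 14.0 and 16.8 CPM in U. ornatus (log2 1.54 ± 0.45), lost without J (0.144), E (0.115) or F (0.0802). No endothelial call was stable, and the number called was 0 without J, E or F, 2 without R or S and 5 without H. In other animals at 40 °C, 1 marker was higher and 1 lower, with a median of 0.16, and 0 of the 4 calls recurred. Summed over the list the level was 815 to 1084 CPM in U. graciosus and 433 to 865 CPM in U. ornatus, with H the highest U. ornatus. LAMA4, higher in U. graciosus, belongs to vessel walls, and the part of these cell types in its difference was not tested.

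The summed markers of T cells and of macrophages were lower in each U. graciosus than in any U. ornatus, and highest in U. ornatus E. Of 11 T and NK cell markers 3 were lower, 27.3% against 14.8% of all genes, 1 lay above 0 and the median was -2.58. Levels were low, and the called genes CD247 and TBX21 were under 1 CPM in every U. graciosus. CD247, the zeta chain of the T cell receptor, had 0.247, 0.238 and 0.211 CPM in U. graciosus, against 3.65, 1.06 and 0.891 CPM in U. ornatus (log2 -2.98 ± 0.93), lost without J (0.11), R (0.113), S (0.112), E (0.193) or F (0.0548). TBX21, a factor of effector lymphocytes, had 0.0823, 0.0794 and 0.0845 CPM in U. graciosus, against 4.07, 0.553 and 0.775 CPM in U. ornatus (log2 -4.37 ± 1.28), lost without J (0.0972), R (0.099), S (0.0889) or E (0.155). CD3E had 11.3, 8.81 and 8.32 CPM in U. graciosus, against 10.1, 6.82 and 8.18 CPM in U. ornatus and was not called. The list summed to 13.1 to 16.1 CPM in U. graciosus and to 55.0, 18.1 and 22.4 CPM in U. ornatus E, F and H. CD3E made up the larger part of the sum in each U. graciosus. No member was called without E, J, R or S, 1 was called without F and 2 without H. In other animals at 40 °C, 0 members were higher and 2 lower, with a median of -1.78, and 0 of the 3 calls recurred.

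Macrophage markers gave 1 lower call among 12, 8.33% against 14.8% of all genes, VSIG4, a complement receptor of liver macrophages, with 3.62, 3.73 and 3.51 CPM in U. graciosus, against 18.5, 8.02 and 10.7 CPM in U. ornatus (log2 -1.77 ± 0.55), lost without J (0.106), R (0.102), S (0.103), E (0.154) or H (0.0611). Their sum was 458 to 491 CPM in U. graciosus and 569 to 903 CPM in U. ornatus, again highest in E. In other animals at 40 °C, 0 macrophage markers were higher and 6 lower, with a median of -1.58, and the 1 call recurred. B cell markers gave 1 higher and 2 lower calls among 11, 27.3% against 14.8% of all genes, none of them passing when any 1 of the 6 animals was left out. Among the lower was CD79B, a chain of the B cell receptor, with 2.39, 3.02 and 1.60 CPM in U. graciosus, against 11, 9.21 and 11.2 CPM in U. ornatus (log2 -2.16 ± 0.63), lost without J (0.0876), R (0.0639), S (0.103), E (0.0711), F (0.0562) or H (0.0635). The sums of the B cell markers overlapped, 43.2 to 53.3 CPM in U. graciosus and 46.2 to 54.6 CPM in U. ornatus. Cholangiocyte markers gave 1 higher call among 10, 10% against 14.8% of all genes. It was SLC4A2, the anion exchanger of bile ducts, with 72.8, 51.9 and 40.8 CPM in U. graciosus, against 30.1, 35.4 and 35.0 CPM in U. ornatus, lost without J (0.15), R (0.0624), E (0.105), F (0.0638) or H (0.0587). Pigment cell and melanomacrophage markers gave 1 higher call among 11, 9.09% against 14.8% of all genes. It was TRPM1, with 9.80, 9.56 and 5.91 CPM in U. graciosus, against 3.27, 4.19 and 2.02 CPM in U. ornatus, lost without J (0.0652), R (0.0665), E (0.0563) or H (0.0733). No call was found among markers of heterophils and mast cells (6 tested), erythrocytes (10), thrombocytes (10), skeletal muscle (14), kidney and gonad (8), adipocytes (5) or pancreas and gut (8).

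**Figure D4:**
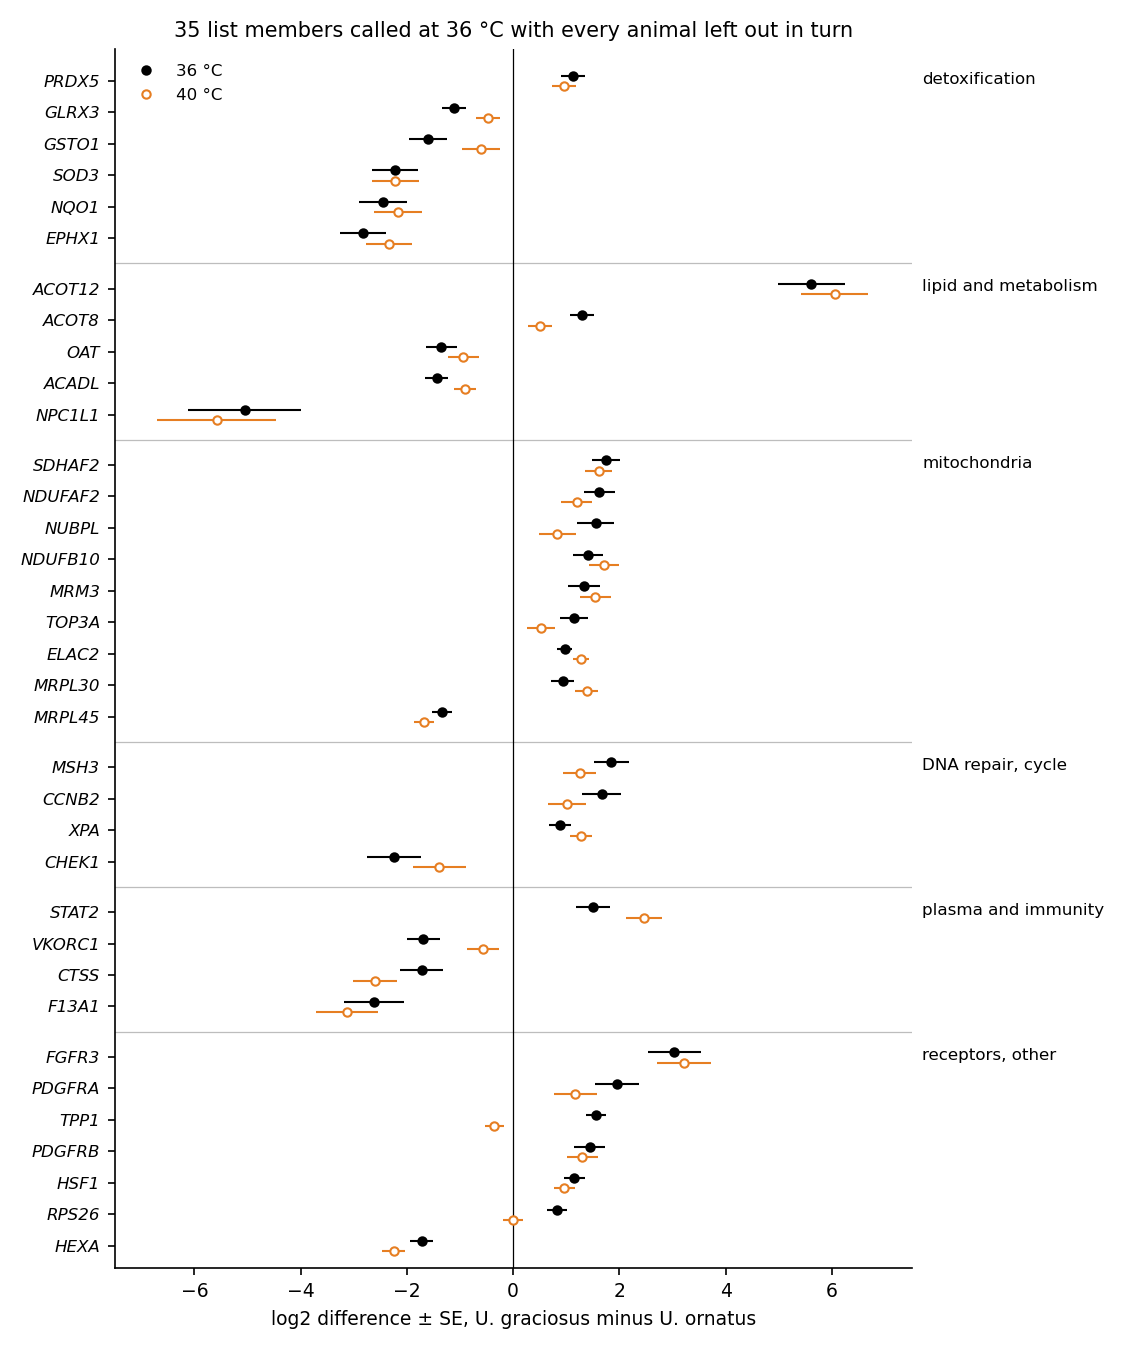
Log2 difference (U. graciosus minus U. ornatus, point) with its SE (line) at 36 °C (filled black) and in other animals at 40 °C (open orange) for 35 list members with stable calls at 36 °C. All but TPP1 and RPS26 lay on the same side of 0 at both temperatures; TPP1 was 1.56 at 36 °C and -0.36 at 40 °C. SLC22A3 and CD59, also stable, are left out because they would stretch the axis.

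The same species contrast was available in other animals at 40 °C, where 2528 genes were called, 15.9% of those tested. Of the 2353 genes called at 36 °C, 2247 had the same sign at 40 °C, or 95.5%, against 71.0% of the 13503 genes not called. Both temperatures called 1252 genes the same way, 53.2% of the calls at 36 °C and 49.5% of those at 40 °C, and 1 gene called higher and 1 called lower at 36 °C were called the opposite way. Genes called higher at 36 °C had a median difference of 1.5 there and 1.10 at 40 °C, and genes called lower had -1.82 and -1.44. The genes were chosen by their values at 36 °C, which favours larger differences at 36 °C. Of the 895 stable calls, 880 kept their sign and 665 were called the same way at 40 °C.

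Several named genes were called again in the other animals. The difference at 40 °C was 5.69 ± 0.40 for KIF4A, -6.88 ± 0.82 for SLC16A4, -2.21 ± 0.44 for SOD3, -2.34 ± 0.43 for EPHX1, 0.97 ± 0.20 for HSF1 and 1.71 ± 0.29 for NDUFB10, all called there. GSTO1, at -0.60 ± 0.35, TPMT, at -0.06 ± 0.32, and RPS26, at -0.01 ± 0.19, were not called at 40 °C, but for none of them did the test of the difference between temperatures pass. That test called 1 gene of 15856, or 0.00631%, TPP1. At 40 °C it had 14.8, 13 and 14.9 CPM in U. graciosus, against 21.6, 15.5 and 17.6 CPM in U. ornatus (log2 -0.36 ± 0.18), so the 36 °C difference of 1.56 ± 0.18 was not seen there, and the difference between temperatures was 1.91 ± 0.25 (edgeR adjusted p = 0.0216). By unadjusted p under 0.05 this test picked 1183 genes, and DESeq2 called 66.

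**Figure D5:**
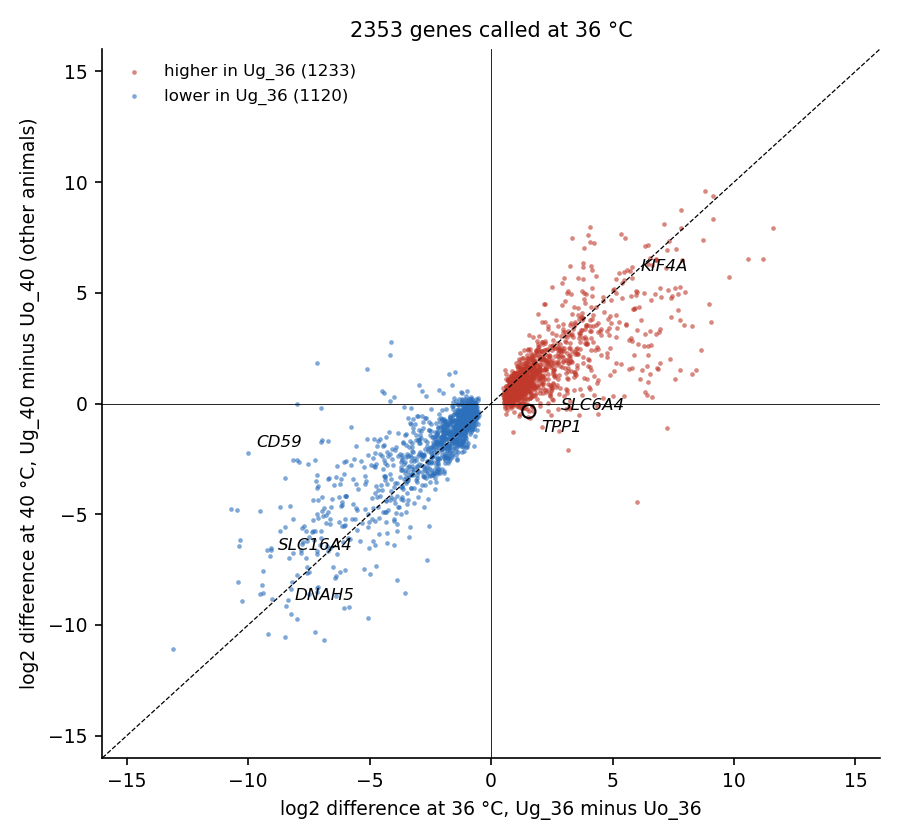
Each point is 1 of the 2353 genes called at 36 °C, with its log2 difference at 36 °C (Ug_36 minus Uo_36) on the horizontal axis and at 40 °C (Ug_40 minus Uo_40, other animals) on the vertical axis; red genes were higher and blue genes lower in U. graciosus at 36 °C, and the dashed line marks equal values. In all, 2247 genes lay in the quadrants of equal sign, and the circle marks TPP1.

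Hybrid values are given for a pair of these genes. KIF4A had 37.1, 31.7 and 39.5 CPM in hybrids A, B and D kept at 36 °C, far above the 1.04 to 1.34 CPM of U. ornatus, and SLC16A4 had 0.464, 0 and 0.253 CPM, near the U. graciosus values. These 2 genes were picked after their values were seen.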

How the data were processed

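Liver RNA of 18 male lizards was sequenced from directional Illumina libraries, per the labels' protocols. The authors deposited a table of raw counts per gene, 22773 genes by 18 libraries, of which 9041 carry placeholder names. Per the submitters' processing notes they used Trim Galore 0.6.4, STAR, Subread and DESeq2, and per the series design text the genome was that of Sceloporus undulatus. The sources used here give no build, annotation, strand setting or rule for reads that match several genes, so antisense, overlapping and duplicated genes are uncertain. Most low counts were even (72.9% to 74.3% of counts from 1 to 20 in the 6 libraries), so a count may not equal 1 fragment.

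Genes were kept by edgeR's filterByExpr, scaled by TMM (factors 0.870 to 1.01 in the 6 libraries) and fitted by edgeR 4.0.16 in R 4.3.3, robust quasi-likelihood, with 1 mean for each of 6 groups over all 18 libraries. Contrasts were Ug_36 minus Uo_36, Ug_40 minus Uo_40 and their difference, with Benjamini-Hochberg adjustment over the 15856 genes tested and calls under 0.05. Errors, given as SE, were worked back from the test, as the absolute log2 difference divided by the square root of its F statistic. For genes near 0 in 1 species they do not give the precision of the fold. Folds against a species with 0 counts use a floor of 3 counts over its 3 libraries, taking each count as a separate fragment. They pool the counts of the 3 animals and leave out the spread between animals. As lower bounds these folds are too large if fragments were counted more than once. Counting intervals are exact binomial, take each count as a separate fragment and cover counting error only. They are too narrow if fragments were counted more than once.

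The 6 libraries, the 52 gene lists and the rule for named genes were chosen with earlier results of these data known. The rule took, among genes with symbols, the 12 largest differences of called genes at 1 CPM or more and the 12 smallest p each way, up to 5 called members of each list, 16 fixed genes, the 3 highest members of each cell type list, the 8 most counted genes of each species that are near 0 in the other, the 12 genes highest in CPM and the 8 smallest p of the temperature term. Some genes that the rule picked are not reported here. Nothing states that libraries of a group come from separate dates or cages, so p-values measure the spread between animals within groups. That spread, and with it each SE, was estimated over all 18 libraries, hybrids and warmer animals included, not only the 6 compared. The calls depended on this choice. Leaving out X, T and O, all from the warmer groups and chosen after seeing the data, gave 3886 calls against 2353. The fit on the 6 libraries alone gave 2347, of which 1795 were shared. Alternatives were DESeq2 1.42.0, limma 3.58.1 voom with quality weights, RLE factors, other filters, fits on fewer libraries, halved counts and each library left out. The pipeline was tested on simulated data.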

Additional observations from a re-analysis of the deposited data

Results flagged for a closer look

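TPP1, a tripeptidyl peptidase of the lysosome, was the 1 gene whose species difference depended on temperature by the test of that dependence. At 36 °C it had 22.9, 20.3 and 20.7 CPM in U. graciosus, against 8.0, 6.73 and 7.01 CPM in U. ornatus, a log2 difference of 1.56 ± 0.18. At 40 °C, in other animals, it had 14.8, 13 and 14.9 CPM in U. graciosus, against 21.6, 15.5 and 17.6 CPM in U. ornatus, a log2 difference of -0.36 ± 0.18. The first difference minus the second was 1.91 ± 0.25 (SE; edgeR adjusted p = 0.0216). With 1 library left out at a time it was 1.77 to 2.02, and the adjusted p was 0.0259 to 0.141, past 0.05 without J, R, S, F, H, P, Q or O and under it without E, L, N or T. By limma voom with quality weights the adjusted p was 0.0126 and by DESeq2 4.65e-09.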

How the results depend on the processing

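None of the 156 named genes that were called changed sign under any alternative run. Of the 66 named genes not called, 28 did in at least 1, with differences of at most 0.89 in size. More genes were called higher than lower, but fewer in the fit on the 6 libraries alone (1158 against 1189), by voom (1794 against 1843) and without E (686 against 712). Counts at 36 °C came to 802 higher with a filter of at least 5 CPM, 241 higher and 228 lower with a log2 threshold of 1, 1843 lower by voom, 1737 lower by DESeq2, and 2038 higher and 1848 lower when X, T and O were dropped, a choice made after seeing the data. With 1 library left out they were 686 to 911 higher and 556 to 863 lower. At 40 °C voom called 2051 higher and 2244 lower, and leaving out a library gave 705 to 947 higher and 719 to 1080 lower. Genes whose difference depended on temperature numbered 6 by voom, 66 by DESeq2 and 0 to 3 with a library left out. RLE factors, no low-count filter, only the 6 libraries compared, only those at 36 °C and halved counts, the last added after seeing the data, kept both 36 °C counts within 1.5 times.

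DESeq2 shared 2345 of the 2353 calls and the fit on the 6 libraries alone 1795, while leaving out 1 library shared 54.1% to 66.6% of them, fewest without R. Of the 156 named genes that were called, 89 passed with each of the 6 animals left out. No paired analysis was possible because the groups share no replicate letter. Depth limits genes under 1 CPM, where 0 counts do not show absence. Alignment to another genus limits every gene, and its effect was not tested.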

Other observations

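Some transcripts of other organs varied between animals of both species without separating them. CPB1, a carboxypeptidase of the pancreas, had 69.4, 26.0 and 2.11 CPM in U. graciosus, against 61.0, 1.20 and 80.2 CPM in U. ornatus, and CELA1, an elastase, had 52.6, 31.6 and 2.20 CPM in U. graciosus, against 50.6, 1.47 and 97.0 CPM in U. ornatus. LPL, the lipase of fat and muscle capillaries, had 118, 370.0 and 323 CPM in U. graciosus, against 1062, 359.7 and 52.6 CPM in U. ornatus. None was called, and in each gene animals of 1 species differed by more than the species means.

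Beside TPP1, SLC6A4, the serotonin transporter, came closest to a difference between temperatures, with 20.9, 22.6 and 21.2 CPM in U. graciosus, against 5.35, 4.93 and 5.70 CPM in U. ornatus at 36 °C (log2 2.02 ± 0.23) and a log2 difference of -0.09 ± 0.22 in other animals at 40 °C. The difference between temperatures was 2.11 ± 0.32 (edgeR adjusted p = 0.0543), which missed the threshold. LRFN5, a synaptic adhesion protein, had 2.88, 3.02 and 3.13 CPM in U. graciosus, against 0.758, 0.553 and 0.310 CPM in U. ornatus at 36 °C (log2 2.48 ± 0.39) and -0.53 ± 0.35 at 40 °C, with an adjusted p of 0.0988 for the dependence by edgeR.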
